A study of Mus musculus with 12 samples.

Results

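The comparison set hearts of Western diet mothers on postpartum day 1 against hearts of Western diet females that had not been pregnant. Its members are 6 of the 12 libraries of the study, 3 per group, chosen by the diet and time point in their labels. All animals were female WT mice of strain C57BL/6 (given as C57BL/6J in the treatment notes), and heart tissue was taken from all of them at 27 to 29 weeks of age. Both groups had eaten a Western diet, in which fat gave 45% and sucrose 17% of the energy. Feeding lasted 15 weeks before the postpartum females were bred, and the nonpregnant females stayed on the diet unbred for the same time. The other 6 libraries, 3 postpartum and 3 nonpregnant, came from females whose control diet held 10% of its energy in fat, and are used here for the difference between the diets and, in the fit they share, for the estimate of spread. The labels number the libraries but do not say that each came from its own animal, so p-values measure the spread between these samples. The title numbers of all postpartum libraries on this diet precede those of the nonpregnant ones, and whatever followed that order and pregnancy cannot be told apart.

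During pregnancy the heart enlarges and pumps more blood, and after delivery it returns towards its earlier size within weeks. The study asked whether metabolic syndrome, the joint occurrence of obesity, insulin resistance and related disorders, makes this remodelling harmful. Cardiomyocytes burn mainly fatty acids, and when the heart grows or is strained they raise ribosome production, remodel the contractile and anchoring proteins, and release natriuretic peptides, while fibroblasts and vessel cells lay down matrix. The heart also has its own circadian clock, in which the factors CLOCK and BMAL1 (gene Arntl) drive genes such as Dbp and Ciart through E-box sequences.

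RNA was read from whole trimmed heart tissue, so in every result fewer cells of a type and less RNA per cell cannot be told apart. Library totals ran from 22912896 to 25472803 gene counts in Western diet postpartum and from 22978995 to 28398335 in Western diet nonpregnant libraries, and mitochondrial genes took 21.1% ± 0.589 and 20.9% ± 0.421 of them (SD, n = 3 each). A count of 0 allowed a level of up to 0.131 and 0.131 CPM, that is counts relative to the scaled size of the library, in the shallowest library of each group, for counting error only. The 14 ventricular cardiomyocyte markers summed to 91734 to 93817 CPM in Western diet postpartum and 89863 to 93359 CPM in nonpregnant hearts, so the defining markers of the labelled tissue were present at a high level. Western diet postpartum replicate 2 stood apart from the other postpartum libraries. On the principal component that carried 34% of the variance among the 6 libraries it scored 1.02, between -25.9 and -22.2 for postpartum replicates 1 and 3 and 10.6 to 23.4 for the nonpregnant libraries. Among the control diet libraries, postpartum replicate 3 carried fat tissue transcripts. White adipocyte markers had a median log2 fold change, postpartum over nonpregnant, of -0.095 on the Western diet and 2.09 on the control diet, which was 0.18 without that library.

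**Figure D1:**
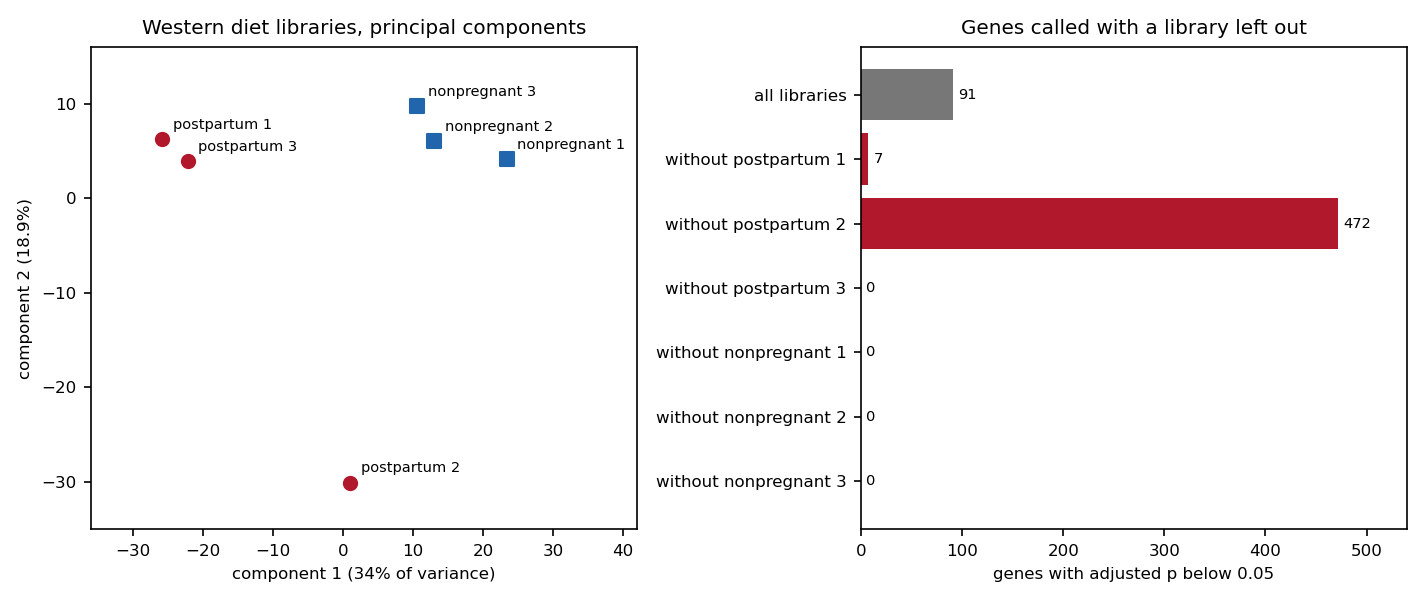
Left, the 6 Western diet libraries on the first and second principal components of log2 CPM (postpartum red circles, nonpregnant blue squares), where postpartum replicate 2 lies apart from postpartum replicates 1 and 3. Right, genes with adjusted p below 0.05 between Western diet postpartum and nonpregnant hearts with all libraries and with each of the 6 left out, from 0 to 472 against 91 with all.

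Postpartum hearts on the Western diet had more transcript of the injury matrix genes Thbs1 and Tnc, the monocyte chemokine gene Ccl2, the antioxidant genes Gclm, Srxn1, Hmox1 and Txnrd1, the amino acid stress genes Eif4ebp1, Mthfd2 and Slc7a5, and the uridine kinase gene Uck2. They had less transcript of the clock output genes Ciart, Dbp and Bhlhe41 and of the titin cap gene Tcap. Most other members of the lists that hold these genes were not called. Of 15476 genes tested, 91 passed an adjusted p of 0.05 in edgeR's quasi-likelihood test (0.588%), 55 higher (0.355%) and 36 lower (0.233%) in Western diet postpartum hearts. Most changes were small. The median log2 fold change was 0.54 among the genes that rose and -0.57 among those that fell, and 17 genes, 12 up and 5 down, changed at least 2-fold. Over all genes tested the median was -0.0026, and 49.3% were higher in postpartum hearts. All called genes had groups that did not overlap, beside 10.1% of all genes that were higher without overlap and 9.51% that were lower. Adjusted p-values lay close to the threshold, from 0.0249 to 0.0488.

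The number of calls depended on single libraries. With any nonpregnant library or postpartum replicate 3 left out no gene passed, with postpartum replicate 1 left out 7 genes passed, and with postpartum replicate 2 left out 472 passed. These held 88 of the 91. Each of the 91 genes kept its direction and an unadjusted p under 0.05 in all 6 of these fits. Postpartum replicate 2 was the lowest postpartum library for 41 of the 55 genes that rose and the highest for 23 of the 36 that fell. Fitted to the 6 Western diet libraries alone, 47 genes passed, of which 34 were among the 91.

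Thbs1 and Tnc, which encode matrix proteins, were among the called genes with the larger log2 fold changes. In what follows values in CPM are given for replicates 1, 2 and 3 in that order, a value in brackets after a gene is its log2 fold change, postpartum over nonpregnant, with its SE after the ± sign, and the median of a list is the median of these. Thbs1 (chr2:118111876-118127133, GRCm38, as are all positions here) encodes thrombospondin 1, a matricellular protein that activates TGF-beta and restrains vessel growth. It had 17.3, 15.7 and 11.2 CPM in Western diet postpartum replicates 1, 2 and 3, against 4.21, 3.26 and 4.58 CPM in the nonpregnant replicates, a log2 fold change of 1.88 ± 0.30 (SE, adjusted p = 0.0271). Its lowest postpartum library was more than 2-fold above the highest nonpregnant one. Thbs1 did not pass with edgeR's robust option (adjusted p = 0.0507). Tnc, tenascin C, a matrix glycoprotein that adult heart re-expresses around injury, had 2.49, 4.55 and 3.77 CPM in postpartum and 1.12, 1.21 and 1.06 CPM in nonpregnant hearts (1.67 ± 0.28, adjusted p = 0.0271). The nonpregnant values lay close together and well under every postpartum one. B4galt1, a galactosyltransferase that builds the glycans of secreted proteins, had 102, 93.6 and 105 CPM in postpartum and 69.3, 82.0 and 75.7 CPM in nonpregnant hearts (0.40 ± 0.068, adjusted p = 0.0271). Other called genes of the cell surface and matrix, grouped after their values were seen, were Hs6st1, a heparan sulfate sulfotransferase (0.40), Mfge8, a bridge for the uptake of dying cells (0.33), and Ism1, a secreted isthmin (1.07), all higher, and Lama5, the laminin alpha 5 chain of vessel basement membranes, which fell (-0.49).

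Of 22 matricellular and injury matrix genes, 2 rose, Thbs1 and Tnc, beside 0.355% of all genes, and none fell. Of the same genes 18 were higher in postpartum hearts, with a median log2 fold change of 0.30. Uncalled members with the smallest p were Fn1, fibronectin (0.44), Loxl1, a collagen cross-linking oxidase (0.29), and Spp1, osteopontin (1.54). None of 20 collagen genes was called and their median was 0.074, and between 0.008 and 0.14 with a Western diet library left out. Col1a1 and Col3a1, the main fibrillar collagens of heart, had log2 fold changes of 0.11 and 0.002 on the Western diet, and 0.86 and 1.30 on the control diet. The fibroblast markers, 15 genes that partly overlap the collagen list, had a median of 0.059 with no call.

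The chemokine gene Ccl2 and the transcription factor genes Stat3 and Fosl2 rose. Ccl2, the chemokine that draws monocytes into tissue, had 4.33, 7.62 and 3.85 CPM in Western diet postpartum and 2.15, 1.51 and 1.27 CPM in nonpregnant hearts (1.69 ± 0.31, adjusted p = 0.0311). Its highest value was in postpartum replicate 2. Stat3, the transcription factor of the interleukin 6 family, whose loss from cardiomyocytes gives mice a peripartum cardiomyopathy, had 186, 155 and 198 CPM in postpartum and 113, 132 and 118 CPM in nonpregnant hearts (0.57 ± 0.10, adjusted p = 0.0281). Exons of Stat3 overlap those of Stat5a on the opposite strand, and it is not stated whether the counting used strand. Fosl2, an AP-1 subunit of the FOS family, had 37.6, 31.2 and 32.7 CPM in postpartum and 22.1, 24.7 and 20.3 CPM in nonpregnant hearts (0.60 ± 0.10, adjusted p = 0.0271). Of 31 cytokine, chemokine and acute inflammation genes 26 were higher in postpartum hearts (median 0.25), beside 49.3% of all genes. Ccl2 was the called gene, beside 0.355% of all genes called higher. The uncalled endothelial adhesion genes Sele, Selp and Icam1 had log2 fold changes of 1.29, 1.36 and 0.46, and the chemokine Ccl7 had 1.29 on the same scale. Among 33 immediate early and AP-1 genes 26 were higher (median 0.28, or 0.15 without nonpregnant replicate 3). For this list, where Fosl2 was the called gene, the shares of all genes are the same. Myc and Atf3 had log2 fold changes of 1.35 and 0.99 without a call.

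Interferon-stimulated genes lay on the other side of 0. Of 35 measured, 3 were higher in postpartum hearts and none was called, with a median of -0.31. Stat2 (-0.44) and Irf9 (-0.45), parts of the factor that drives them, had the smallest p. Summed over the list, the level was 453, 571 and 418 CPM in Western diet postpartum and 789, 544 and 539 CPM in nonpregnant replicates 1, 2 and 3, so that nonpregnant replicate 1 was the highest library. The list's median was -0.19 without it, -0.16 without postpartum replicate 3 and -0.52 without postpartum replicate 2.

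Single genes of nucleotide reuse, ribosome assembly and translation control were called. Uck2 (chr1:167222883-167285320), which phosphorylates uridine and cytidine for reuse, had 87.8, 51.1 and 72.3 CPM in Western diet postpartum and 24.9, 33.0 and 35.1 CPM in nonpregnant hearts, the smallest p of all genes (1.18 ± 0.16, adjusted p = 0.0249). The lowest postpartum library, replicate 2, still lay above all nonpregnant ones. Rrp12, a factor for building and exporting ribosomal subunits, had 47.1, 29.2 and 45.3 CPM in postpartum and 19.2, 19.9 and 25.5 CPM in nonpregnant hearts (0.91 ± 0.15, adjusted p = 0.0271). Eif4ebp1, the repressor of cap-dependent translation that mTOR kinase switches off, had 81.8, 79.5 and 88.2 CPM in postpartum and 64.2, 56.8 and 55.0 CPM in nonpregnant hearts (0.50 ± 0.077, adjusted p = 0.0249). All 3 genes were separated between the groups. Ybx3, an RNA-binding cold shock protein, had 201, 193 and 198 CPM in postpartum and 148, 153 and 148 CPM in nonpregnant hearts (0.40 ± 0.065, adjusted p = 0.0271). Pdcd4, an inhibitor of the translation helicase eIF4A, fell, with 11.7, 13.4 and 15.4 CPM in postpartum and 22.3, 22.7 and 21.4 CPM in nonpregnant hearts (-0.71 ± 0.11, adjusted p = 0.0249).

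Of 50 ribosome biogenesis factors 46 were higher in postpartum hearts, beside 49.3% of all genes. Rrp12 was the called gene, beside 0.355% of all genes called higher. The median was 0.14, with uncalled log2 fold changes of 0.25, 0.28 and 0.44 for Nolc1, Nhp2 and Gnl3. The 45 ribosomal protein genes had a median of 0.033 with no call. In nucleotide synthesis and salvage, 41 genes with a median of 0.024, Uck2 was the called gene. Ctps, which makes CTP, had a log2 fold change of 0.43 without a call. ATF4 is the factor cells use when amino acids run short. Of 33 genes listed here as its targets, 29 were higher (median 0.25) and 3 were called, beside 0.355% of all genes called higher. The called targets were Eif4ebp1, the mitochondrial folate enzyme Mthfd2 (1.08) and the large neutral amino acid transporter Slc7a5 (0.73). Mthfd2 had 10.6, 17.2 and 13.1 CPM in postpartum and 7.13, 7.46 and 4.75 CPM in nonpregnant hearts. Cth, the enzyme that makes cysteine from cystathionine, was not on the ATF4 list and so not in its counts, and it fell (-1.05). Its call ended without postpartum replicate 2 (adjusted p = 0.0507). The 23 endoplasmic reticulum chaperones had a median of -0.14 and the 22 cytosolic heat shock genes 0.030, without a call in either list.

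Genes of insulin and growth factor signalling were called in both directions. Fgf16, a fibroblast growth factor made mainly by heart, fell to 10.9, 11.95 and 10.8 CPM in Western diet postpartum hearts, against 21.4, 19.3 and 18.7 CPM in nonpregnant hearts (-0.82 ± 0.11, adjusted p = 0.0249). The postpartum values differed little among themselves and lay far below the others. Grb14, an adaptor that inhibits the insulin receptor, fell to 115, 142 and 141 CPM in postpartum hearts, against 198, 172 and 186 CPM in nonpregnant hearts (-0.48 ± 0.084, adjusted p = 0.0278). Akt1, the kinase downstream of that receptor, rose (0.36), and Foxo3, a factor that AKT excludes from the nucleus, fell (-0.50). Of 39 genes in the list of insulin, IGF, FGF and mTOR signalling, Fgf16 and Grb14 fell and Akt1 and Eif4ebp1 rose, and the median was 0.069. Foxo3 and Pdcd4 were the called members of 31 glucocorticoid, FOXO and atrophy genes, whose median was 0.078. Over all genes tested 0.588% were called.

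NRF2 is a factor that binds antioxidant response elements when electrophiles or oxidants disable its inhibitor KEAP1. Of 41 antioxidant genes that it controls, 4 were called, all upward, beside 0.355% of all genes called higher. The list had a median of 0.10, and 29 were higher, beside 49.3% of all genes. The median was 0.065 without postpartum replicate 3. Gclm, the regulatory subunit of the enzyme that limits glutathione synthesis, had 30.8, 31.5 and 45.3 CPM in Western diet postpartum and 22.6, 19.6 and 18.7 CPM in nonpregnant hearts (0.82 ± 0.16, adjusted p = 0.0359). Srxn1, which repairs overoxidized peroxiredoxins, had 30.1, 23.1 and 42.3 CPM in postpartum and 18.4, 18.6 and 18.8 CPM in nonpregnant hearts (0.78 ± 0.15, adjusted p = 0.0408). Hmox1, the enzyme that breaks down heme, had 12.3, 18.5 and 17.6 CPM in postpartum and 10.7, 10.3 and 7.08 CPM in nonpregnant hearts (0.79 ± 0.16, adjusted p = 0.0447). For Hmox1, which is also the called member of 24 iron handling genes (median 0.089), the call ended without postpartum replicate 2 (adjusted p = 0.0527). Txnrd1, the cytosolic thioredoxin reductase, rose less (0.41 ± 0.083), with 67.2, 64.1 and 82.1 CPM in postpartum and 54.0, 52.5 and 53.7 CPM in nonpregnant hearts. Gclm and Srxn1 did not pass with edgeR's robust option (adjusted p = 0.0600 for both), nor Srxn1 and Hmox1 with limma-voom (0.0608 and 0.0538), and none of the 4 passed with the 6 Western diet libraries alone (0.0600 to 0.115).

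The bases before the starts of Gclm, Srxn1 and Txnrd1 are shown because these genes were all called higher and their regulator has a known binding sequence. The sequences are RefSeq's (GRCm38.p6), 5′ to 3′ in the sense of the gene, 170 bases each, all on the plus strand, at chr3:122245387-122245556 for Gclm, chr2:152105346-152105515 for Srxn1 and chr10:82859036-82859205 for the second of 3 starts of Txnrd1. Bases inside the gene as annotated are left out. Capitals mark matches on either strand to the core of the antioxidant response element, TGACNNNGC, and to the AP-1 element TGANTCA, which can overlap it.
Gclm: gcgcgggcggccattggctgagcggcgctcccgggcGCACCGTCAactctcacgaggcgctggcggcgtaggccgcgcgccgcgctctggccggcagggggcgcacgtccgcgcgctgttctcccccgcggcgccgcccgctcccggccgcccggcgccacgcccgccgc
Srxn1: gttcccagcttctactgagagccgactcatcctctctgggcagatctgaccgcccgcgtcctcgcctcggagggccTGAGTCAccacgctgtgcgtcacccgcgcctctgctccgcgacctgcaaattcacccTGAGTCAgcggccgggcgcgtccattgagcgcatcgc
Txnrd1: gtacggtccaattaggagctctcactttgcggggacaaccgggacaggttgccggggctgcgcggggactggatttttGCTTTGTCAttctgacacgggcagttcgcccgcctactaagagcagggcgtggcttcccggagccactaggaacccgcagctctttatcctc
Gclm and Txnrd1 each held the antioxidant element once, read on the opposite strand, its nearest printed base at -126 and -84 from the RefSeq start, and the other 2 windows of Txnrd1 held no match. Srxn1 held the AP-1 element at 2 places, beginning at -102 and -45, and no exact match to TGACNNNGC. With its next bases the second place reads TGAGTCAGC, which differs from TGACNNNGC by G for C at a single position. Looser forms of the antioxidant element were not searched, so its absence from Srxn1 is not shown. Hmox1 is named without a sequence. In 32851 windows of 250 bases before RefSeq starts, 10.2% held TGACNNNGC and 6.75% held TGANTCA. A match is a description of letters, and whether a factor binds there was not measured.

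Some genes of fuel use rose. Of 42 genes of fatty acid oxidation and PPAR alpha 1 passed the threshold, upward, beside 0.355% of all genes called higher. In Western diet postpartum hearts 36 had a log2 fold change above 0, beside 49.3% of all genes. The median was 0.16, or 0.092 without postpartum replicate 3. The triglyceride lipase Pnpla2 had a log2 fold change of 0.58 and the acyl-CoA dehydrogenases Acadl and Acadvl had 0.30 and 0.31, uncalled. Pdk4, a pyruvate dehydrogenase kinase induced by fasting, had 481, 2084 and 1048 CPM in postpartum and 376, 529.9 and 587 CPM in nonpregnant hearts (1.28, adjusted p = 0.173). Angptl4, an inhibitor of lipoprotein lipase, had 7.92, 39.9 and 24.9 CPM in postpartum and 7.86, 10.5 and 21.0 CPM in nonpregnant hearts (0.87, adjusted p = 0.419). Both were highest in postpartum replicate 2, and in both the groups overlapped. Of 42 glucose genes 3 rose, beside 0.355% of all genes (median 0.10). Sord, which turns sorbitol into fructose, had 242, 237 and 254 CPM in postpartum and 190.3, 191 and 186 CPM in nonpregnant hearts (0.37 ± 0.052, adjusted p = 0.0249). Bsg, basigin, which brings lactate transporters to the membrane, had 1716, 1678 and 1686 CPM in postpartum and 1247, 1319.9 and 1333 CPM in nonpregnant hearts (0.38 ± 0.061, adjusted p = 0.0271). These changes were small against tight replicates. Pdk1, which switches off pyruvate dehydrogenase, rose by 0.36 on the log2 scale and was the called gene of 26 hypoxia-induced genes (median 0.14, or 0.083 without postpartum replicate 1 and 0.085 without nonpregnant replicate 1). Lipa, the lysosomal acid lipase, and Slc25a39, a mitochondrial carrier needed for glutathione import, rose by 0.29 and 0.35 on the same scale. No member was called among 42 nuclear respiratory chain genes (median 0.076), 13 mitochondrially encoded genes (0.043), 23 glycogen genes (0.061) or 32 sterol and fatty acid synthesis genes (-0.047).

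**Figure D2:**
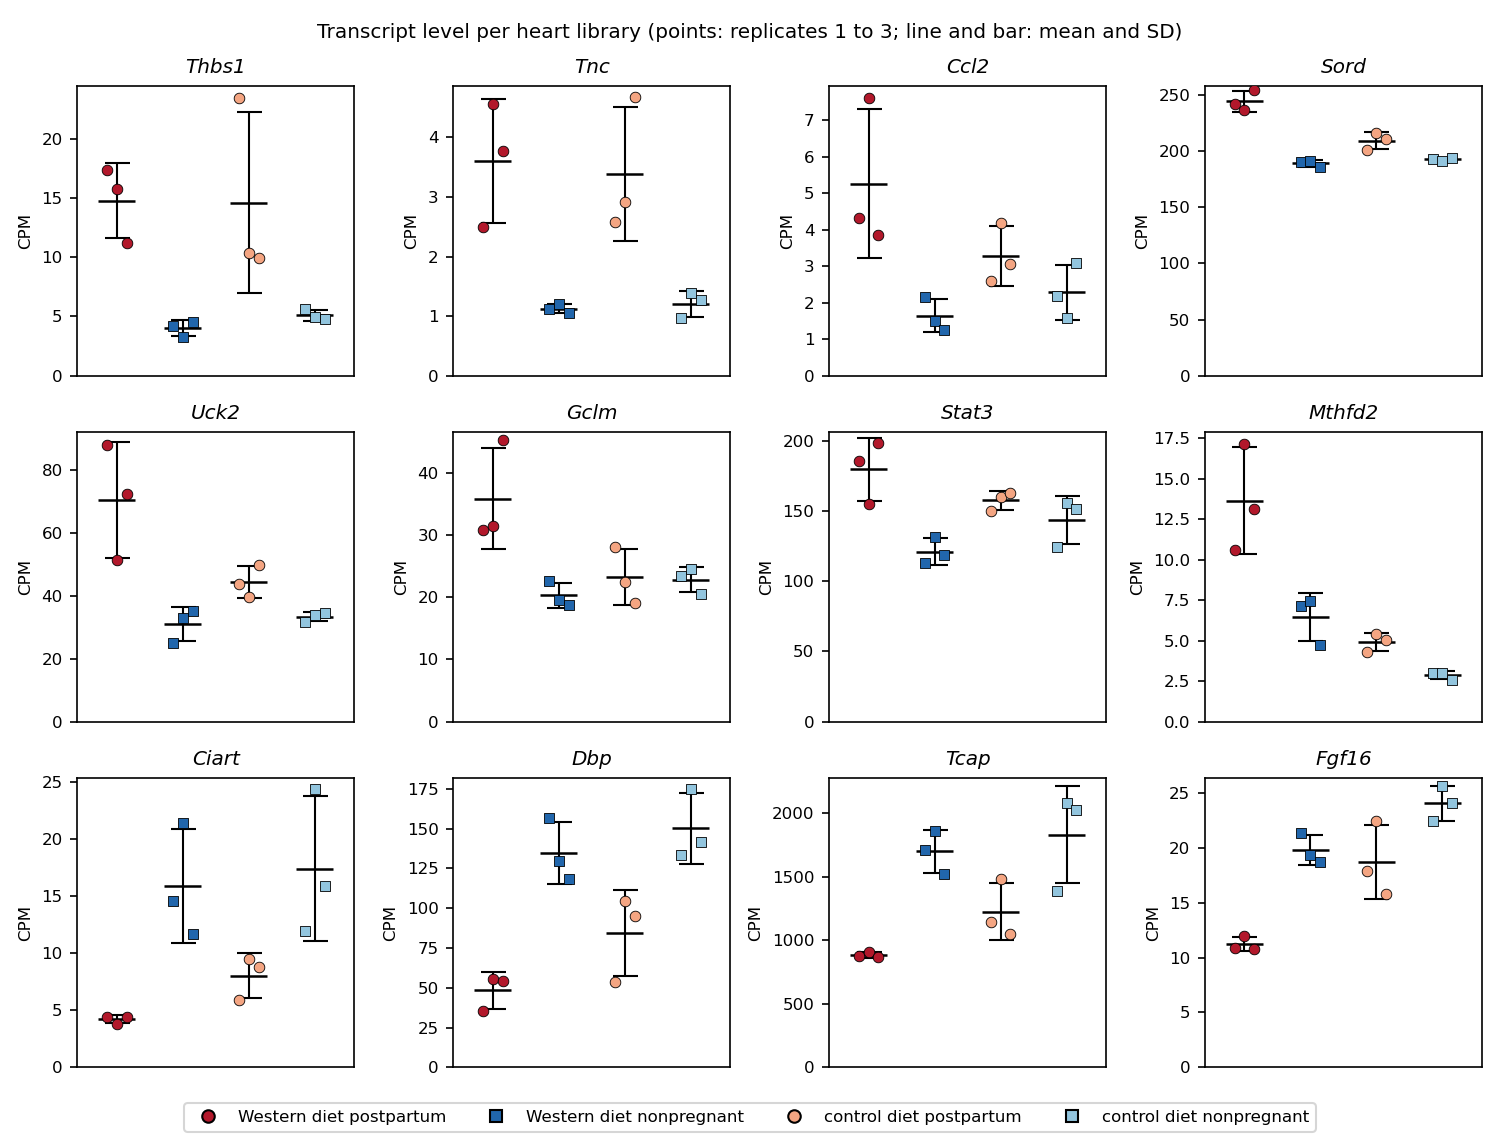
Levels in CPM of 12 called genes in each heart library (linear axes from 0; points are replicates 1 to 3, line and bar are mean and SD), in the order Western diet postpartum, Western diet nonpregnant, control diet postpartum and control diet nonpregnant. In every panel the 3 Western diet postpartum points lie clear of the 3 Western diet nonpregnant points.

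Several genes of the muscle cell's framework rose while the titin cap fell. Tcap (chr11:98383811-98384953) encodes telethonin, which ties the ends of titin together at the Z-disc, and was at 1964 TPM, a level scaled by gene length, in Western diet postpartum and 3925 TPM in nonpregnant hearts. Per library it had 878, 912 and 871 CPM in postpartum and 1715, 1865 and 1526 CPM in nonpregnant hearts (-0.94 ± 0.15, adjusted p = 0.0249). The postpartum values were nearly equal. Smtn, smoothelin, an actin-binding protein of contractile smooth muscle, fell to 137, 164 and 146 CPM in postpartum hearts, against 214, 211 and 203 CPM in nonpregnant hearts (-0.49 ± 0.073, adjusted p = 0.0249). Des, desmin, the intermediate filament that links Z-discs, rose (0.39 ± 0.067), with 2499, 2299 and 2618 CPM in postpartum and 1823, 1914 and 1915 CPM in nonpregnant hearts. Dmd, dystrophin, which anchors the cytoskeleton to the membrane, rose by 0.44, Synpo, an actin-bundling synaptopodin, by 0.46, and Limd1, a LIM protein of cell contacts, by 0.55, on the log2 scale. Popdc3, a membrane protein of striated muscle, had 36.5, 27.1 and 35.5 CPM in postpartum and 20.2, 21.0 and 22.002 CPM in nonpregnant hearts (0.65 ± 0.10, adjusted p = 0.0249). Myl12a, a regulatory light chain of nonmuscle myosin with the near-identical copy Myl12b, rose by 0.47 on the log2 scale, and Adprhl1, an ADP-ribosylhydrolase-like protein of the heart, by 0.40. Camk2g, a calcium and calmodulin dependent kinase, fell (-0.30), as did Rnf207, a ubiquitin ligase that affects cardiac potassium channels (-0.40), and Ppp1r14c, an inhibitor of protein phosphatase 1 (-0.53). Exons of Rnf207 overlap those of Icmt on the opposite strand.

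Tcap was the called gene of 28 Z-disc and titin-linked genes, beside 0.233% of all genes called lower. It went against the list, of which 21 were higher (median 0.19), beside 49.3% of all genes. The log2 fold changes of Myoz2, Nrap, Flnc and Mypn, which sit at the Z-disc or its ends, were 0.33, 0.41, 0.49 and 0.46, uncalled. Over the whole list the median deviation from the nonpregnant mean was 0.28, 0.032 and 0.25 on the log2 scale in postpartum replicates 1, 2 and 3, so that replicate 2 was the lowest and within the nonpregnant range. No gene was called among 20 sarcomere genes (median -0.043), 35 ion channel and gap junction genes (-0.11) or 22 adrenergic and renin-angiotensin genes (0.0093), and Camk2g was the called gene of 29 in calcium cycling (-0.031).

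Markers of cardiac strain did not pass the threshold. Nppb, which encodes the B-type natriuretic peptide that stretched cardiomyocytes secrete, had 622, 129.8 and 406 CPM in Western diet postpartum and 85.1, 67.6 and 128 CPM in nonpregnant hearts (2.04 ± 0.44, adjusted p = 0.0588). Every postpartum value was above every nonpregnant one, with replicate 2 barely so, and without that library the adjusted p was 0.00192 at a log2 fold change of 2.45. In that fit 472 genes passed, against 91 with all libraries. Without postpartum replicate 3 or any nonpregnant library no gene passed, Nppb included. Nppa, the atrial peptide, had 42.3, 61.0 and 51.8 CPM in postpartum and 33.0, 28.5 and 54.3 CPM in nonpregnant hearts (0.42, adjusted p = 0.359). Ankrd1, a titin-linked stress protein, had 1379, 907 and 883 CPM in postpartum and 696, 377 and 668 CPM in nonpregnant hearts (0.86), and Ccn2, connective tissue growth factor, 175, 59.2 and 185 CPM in postpartum and 64.2, 45.3 and 55.3 CPM in nonpregnant hearts (1.35). For Ccn2 postpartum replicate 2 lay close to the nonpregnant values, and replicates 1 and 3 lay far above them. The log2 fold change was 0.73 for Acta1, skeletal alpha-actin of the fetal heart program, -0.14 for Myh7, the slow myosin heavy chain of that program, and 0.11 for Myh6, the adult mouse myosin heavy chain, all uncalled. The list of 26 natriuretic peptide and fetal program genes had a median of 0.14 with no call. Other genes followed for their part in strain, vessels and pregnancy were uncalled. Log2 fold changes were 0.33 for the matrix protein Postn, 0.84 for the protease inhibitor Timp1 and 0.080 for the stress cytokine Gdf15. They were 0.16 for the vessel growth factor Vegfa, 0.062 for its receptor Flt1, 0.050 for the prolactin receptor Prlr and 0.015 for the calcium pump Atp2a2. Stat3 was the called gene of 20 pregnancy hormone receptors and STAT targets (median 0.033), where Socs3 and Socs2, which STAT factors induce, had log2 fold changes of 0.76 and 0.36 without a call.

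The genes that fell were led, in size, by the circadian clock's outputs. Ciart, a repressor of the clock whose levels cycle strongly, had 4.37, 3.81 and 4.45 CPM in Western diet postpartum and 14.6, 21.4 and 11.7 CPM in nonpregnant hearts (-1.91 ± 0.28, adjusted p = 0.0249). Dbp, a PAR bZIP factor that passes clock time to metabolic genes, had 35.2, 55.4 and 54.4 CPM in postpartum and 156, 129 and 119 CPM in nonpregnant hearts (-1.48 ± 0.22, adjusted p = 0.0249). Dbp did not pass with edgeR's robust option (adjusted p = 0.0594). Bhlhe41, a repressor that binds E-boxes, had 25.0, 28.9 and 27.5 CPM in postpartum and 44.4, 43.6 and 41.5 CPM in nonpregnant hearts (-0.67 ± 0.12, adjusted p = 0.0300). In each of these genes every postpartum value lay below every nonpregnant one. Exons of Bhlhe41 overlap a predicted gene on the opposite strand that was also called lower, and Dbp overlaps Sphk2, so reads of either could be shared where strand was not used. The 3 calls were among 14 clock output genes, beside 0.233% of all genes called lower, and 4 of the 14 were higher (median -0.21). Nfil3, which represses the genes that DBP activates, had a log2 fold change of 0.86, and the clock-controlled deubiquitinase Usp2 -0.37, uncalled.

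Of 15 core clock genes none was called, and 8 were higher (median 0.064, or -0.026 without postpartum replicate 3 and -0.0061 without nonpregnant replicate 3). Nr1d1, the repressor REV-ERB alpha, had 61.9, 40.1 and 85.1 CPM in postpartum and 130.5, 150.5 and 131 CPM in nonpregnant hearts (-1.14, adjusted p = 0.0523). The groups did not overlap. Its relative Nr1d2 had a log2 fold change of -0.46, while Npas2 and Arntl, which REV-ERB proteins repress, had 0.99 and 0.68. The repressors Cry1 and Per2 had 0.42 and 0.064 on the same scale. The labels name no hour of tissue collection, and time of day and pregnancy cannot be told apart.

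The bases before Ciart and Bhlhe41 are shown because both fell and because the clock's factors bind the E-box CACGTG, marked in capitals. They are RefSeq's, 5′ to 3′ in the sense of the gene, with bases inside the gene as annotated left out, and lie on the minus strand at chr3:95882252-95882421 for Ciart and chr6:145865559-145865670 for Bhlhe41.
Ciart: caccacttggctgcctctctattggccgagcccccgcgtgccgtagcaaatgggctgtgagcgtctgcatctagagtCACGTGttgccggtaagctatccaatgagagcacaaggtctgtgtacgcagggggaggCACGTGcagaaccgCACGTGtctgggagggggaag
Bhlhe41: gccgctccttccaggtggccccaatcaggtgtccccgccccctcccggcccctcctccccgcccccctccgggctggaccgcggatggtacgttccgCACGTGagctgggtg
The Ciart stretch of 170 bases held 3 E-boxes, beginning -116, -58 and -44 from the RefSeq start. The Bhlhe41 stretch of 112 bases held 1, beginning at -153, while the 250 bases searched before Dbp, not printed, held none. Of all windows, 6.02% held CACGTG, which reads the same on both strands. The D-box TTATGTAA, which DBP binds, was in 0.819% and the ATF4 element TGATGCAA in 0.791% of all windows, and neither was in the windows of these called clock and antioxidant genes.

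**Figure D3:**
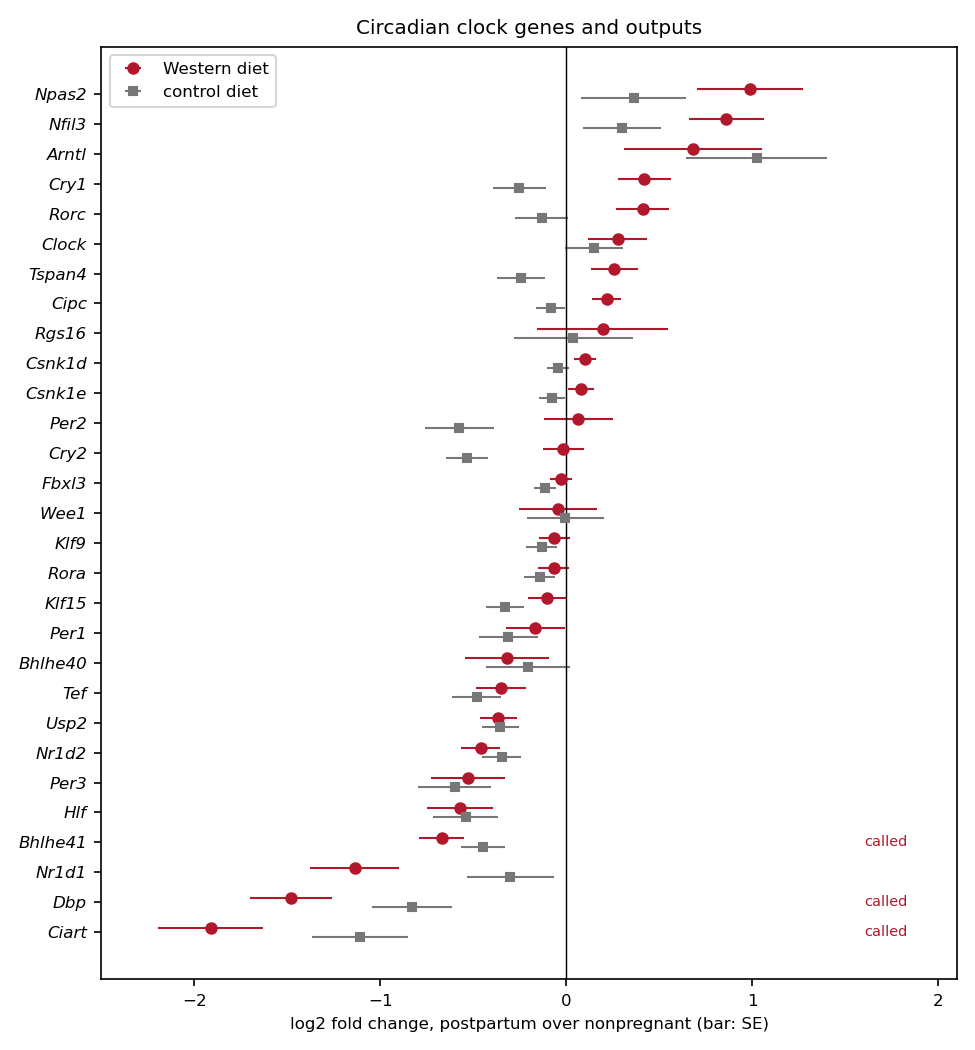
Log2 fold change, postpartum over nonpregnant, of 29 clock core and output genes (points, with SE bars) in Western diet (red circles) and control diet hearts (grey squares), sorted by the Western diet value. Ciart, Dbp and Bhlhe41, the called genes, lie towards the bottom, with the uncalled Nr1d1 between Dbp and Bhlhe41. Npas2 and Nfil3 lie at the top without a call.

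Other genes that fell had roles in cell signalling and muscle metabolism. Hes6, a bHLH factor of differentiation, had 11.8, 13.5 and 13.3 CPM in Western diet postpartum and 20.6, 17.95 and 19.4 CPM in nonpregnant hearts (-0.59 ± 0.095, adjusted p = 0.0271). Plxnb1, the receptor of semaphorin 4D, had 38.7, 51.2 and 36.2 CPM in postpartum and 63.6, 68.3 and 79.5 CPM in nonpregnant hearts (-0.75 ± 0.13, adjusted p = 0.0271). With Stat3 these were the called genes among 37 angiogenesis and peripartum cardiomyopathy genes, beside 0.588% of all genes. The median of that list was -0.028. Carns1, the synthase of the muscle dipeptide carnosine, had 20.5, 27.3 and 23.1 CPM in postpartum and 40.9, 34.3 and 35.6 CPM in nonpregnant hearts (-0.64 ± 0.11, adjusted p = 0.0271). Reep1, which shapes the endoplasmic reticulum, had 21.9, 25.7 and 19.3 CPM in postpartum and 33.0, 34.2 and 35.3 CPM in nonpregnant hearts (-0.62 ± 0.10, adjusted p = 0.0271). In both genes all postpartum values were lower than all nonpregnant ones. Gsg1l, an auxiliary subunit of glutamate receptors in brain, had 7.64, 6.22 and 7.32 CPM in postpartum and 12.8, 11.3 and 10.9 CPM in nonpregnant hearts (-0.72 ± 0.12, adjusted p = 0.0278). Carns1 overlaps a predicted gene, and Pdcd4 the gene Bbip1, on the opposite strand. The death-associated kinase Dapk1 (-0.34) and the ubiquitin ligase gene Rnf166 (-0.40) also fell.

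Among further genes that rose, Rusc2, an adaptor with an SH3 domain, had 86.7, 69.1 and 87.3 CPM in postpartum and 54.2, 57.0 and 56.7 CPM in nonpregnant hearts (0.53 ± 0.089, adjusted p = 0.0271). Syt12, a synaptotagmin, rose by 1.55 on the log2 scale, with 13.6, 7.09 and 10.3 CPM in postpartum and 2.53, 4.58 and 3.41 CPM in nonpregnant hearts. Syt12 did not pass with edgeR's robust option (adjusted p = 0.0581). Spsb4, a substrate receptor of ubiquitin ligases, rose by 1.05, and Ppm1e, a protein phosphatase, by 0.83 on the log2 scale. Ehd4, which shapes endosomal membranes, rose by 0.49, Rapgef1, an exchange factor for RAP1, by 0.43, and Bace1, the beta-secretase, by 0.33, also as log2 fold changes. Bace1 overlaps Rnf214 on the opposite strand.

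No cell type list held a called gene apart from the smooth muscle and pericyte markers. Lymphocyte markers had a median log2 fold change of -0.66 over the 15 of 27 that passed the filter and a summed level of 12.7 to 14.2 CPM in Western diet postpartum and 17.4 to 23.6 CPM in nonpregnant hearts; none was called. Igkc, the antibody kappa chain, had 0.490, 0.700 and 0.557 CPM in Western diet postpartum and 1.59, 1.33 and 1.27 CPM in nonpregnant hearts. Erythroid and platelet markers, 11 measured, were all higher without a call (median 0.49, or 0.22 without postpartum replicate 2), with summed levels of 406 to 746 CPM in Western diet postpartum and 359 to 518 CPM in nonpregnant hearts. Those groups overlapped. Mesothelial and epicardial markers summed to 19.0 to 19.5 CPM in Western diet postpartum and 12.9 to 15.4 CPM in nonpregnant hearts. The median log2 fold change was 0.094 for endothelial markers. On the same scale macrophage and monocyte markers had 0.14, atrial markers 0.022, ventricular markers 0.054, lymphatic markers 0.13, brown adipocyte markers 0.063, conduction and neural markers -0.22 with Th and Chat at a count of 0 in all 6 libraries, skeletal muscle markers -0.060 and neutrophil markers 0.13, none with a call. The filter was passed by 4 of 12 neutrophil, 6 of 13 skeletal muscle, 6 of 9 atrial and 4 of 12 mesothelial and epicardial markers. Neutrophil markers summed to 5.18 to 9.31 CPM in Western diet postpartum and 4.38 to 8.75 CPM in nonpregnant hearts. Of smooth muscle and pericyte markers (median -0.023), Smtn fell and Des, which cardiomyocytes also express, rose. The cell cycle list had a median of 0.18 over 35 genes with no call, and between 0.11 and 0.29 with a Western diet library left out. The part of such markers in the called genes was not tested.

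**Figure D4:**
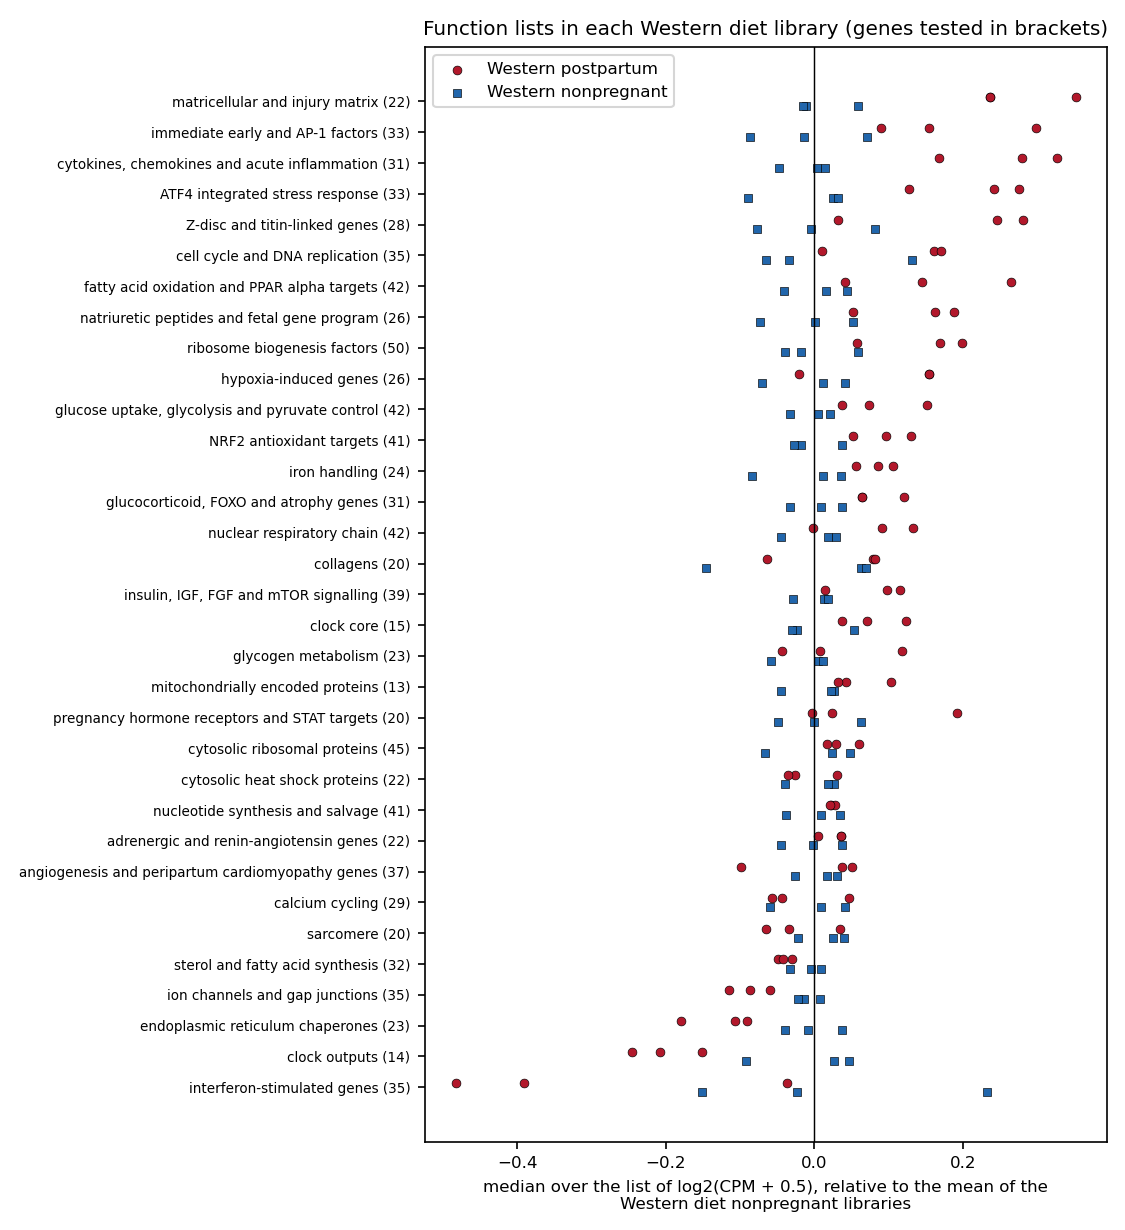
Median over each function list of log2(CPM + 0.5) relative to the mean of the Western diet nonpregnant libraries, for each Western diet postpartum (red circles) and nonpregnant library (blue squares), with the number of genes tested in brackets. Matricellular, immediate early, inflammation and ATF4 lists lie to the right in all 3 postpartum libraries and clock outputs to the left, while interferon-stimulated genes spread widely in both groups.

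Whether the postpartum change differed between diets was tested as an interaction over all 15476 genes. No gene passed in edgeR (0%), 1390 had an unadjusted p under 0.05 (8.98%), limma-voom called 0 and DESeq2 30. The named genes with the smallest p were Serpinh1, the collagen chaperone, with a log2 fold change of -0.080 on the Western and 0.48 on the control diet (interaction adjusted p = 0.234), and Rreb1, Myh14, Dusp18 and Cdk18, up to an adjusted p of 0.350. So a gene called on the Western diet and not on the control diet was not shown to respond differently.

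The control diet libraries are not in the Western diet contrast and give the same measure in other hearts, but they shared its fit and its estimate of spread. The choice of the 91 genes was therefore not independent of them, and leaving out single control diet libraries gave 50 to 147 calls. In these hearts 73 of the 91 genes had the same direction (80.2%), beside 57.6% of all genes, and 29 had it with an unadjusted p under 0.05 (31.9%), beside 8.59% of all. Without the control diet postpartum library that carried fat transcripts these counts were 72 and 23. 2 genes were called on both diets, Tnc and Rnf166, where 37 of all genes (0.239%) were called on the control diet. Thbs1 had control diet values of 23.4, 10.4 and 9.97 CPM in postpartum and 5.61, 4.92 and 4.77 CPM in nonpregnant hearts, a log2 fold change of 1.51, and Tnc 2.59, 2.91 and 4.68 CPM in postpartum and 0.964, 1.39 and 1.27 CPM in nonpregnant hearts (1.501). The interaction had an unadjusted p of 0.400 for Thbs1 and 0.676 for Tnc. The clock outputs Ciart, Dbp and Bhlhe41 had control diet changes of -1.11, -0.83 and -0.45, Tcap -0.58, Fgf16 -0.36 and Foxo3 -0.35, each lower with an unadjusted p under 0.05.

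The genes that rose on the Western diet had smaller control diet changes, with a median of 0.079, against 0.54 on the Western diet, on which they were chosen. The genes that fell also had smaller control diet changes, with a median of -0.16 against -0.57. 12 of the 55 rising genes and 17 of the 36 falling genes passed the unadjusted threshold on the control diet in the same direction. Over all genes tested, 8.59% had the same direction on both diets and passed that threshold on the control diet. The control diet log2 fold changes of the antioxidant genes Gclm, Srxn1, Txnrd1 and Hmox1 were 0.024, 0.17, 0.054 and 0.22. Those of Uck2, Mthfd2, Stat3, Des and Dmd were 0.42, 0.77, 0.13, 0.014 and -0.12. Of these, Uck2 and Mthfd2 had an unadjusted p under 0.05 on the control diet. Ism1 went the other way on the control diet (-0.49, unadjusted p = 0.0428; interaction unadjusted p = 0.000203, adjusted p = 0.350). Among the lists, collagens had a median of 0.074 on the Western and 0.58 on the control diet, and 11 of 20 members had an unadjusted interaction p under 0.05, beside 8.98% of all genes. With each control diet library left out in turn, the control diet median of the collagens was 0.46 to 0.76 and the members counted were 9 to 15. The cell cycle list had medians of 0.18 and 0.85, ATF4 targets 0.25 and 0.073, and matricellular genes 0.30 and 0.45, in the same order of diets. Interferon-stimulated genes had -0.31 and 0.21 in that order, so the lower median on the Western diet was not seen on the control diet. Of the 35, 11 had an unadjusted interaction p under 0.05, beside 8.98% of all genes.

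**Figure D5:**
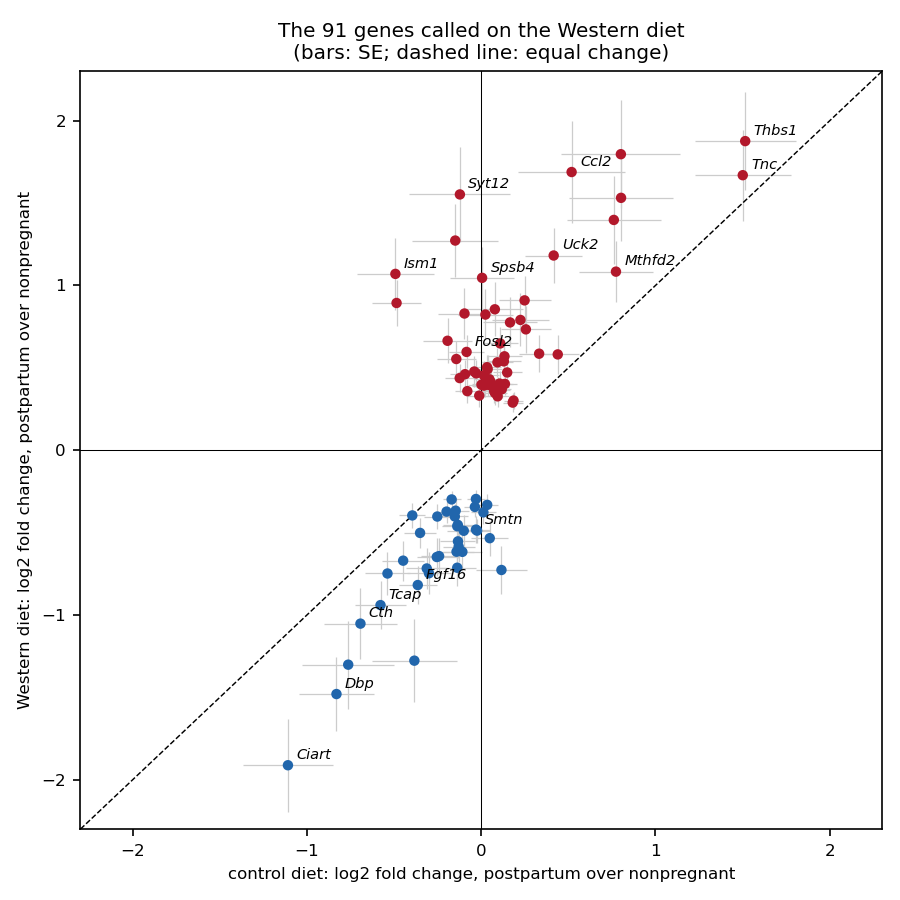
Log2 fold change, postpartum over nonpregnant, of the 91 genes called on the Western diet (vertical) against the same on the control diet (horizontal), with SE bars; red rose and blue fell, and the dashed line marks equal change. Thbs1 and Tnc lie near the line, while Syt12, Spsb4 and Ism1 lie near or left of 0 on the control diet.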

How the data were processed

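The data are gene counts of 12 mouse heart libraries in 4 groups of 3, grouped by diet and time point in the labels. Per the labels' protocols, RNA extraction used the Qiagen RNeasy kit and library preparation NEBNext Ultra RNA reagents. The authors deposited whole-number counts for each gene, which carry no normalization. The submitters' processing notes name FastQC, STAR 2.5.2b, featureCounts, Subread 1.5.2 and the GRCm38 (mm10) genome. Whether strand was used, the read length and the annotation are not stated there, so counts may be shared between close paralogs and between overlapping genes. Counts were joined by gene identifier over 49315 genes, of which 345 had no symbol and were tested but not named.

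Genes with low counts were removed with filterByExpr of edgeR 4.0.16 in R 4.3.3 (minimum count 10, minimum total 15), and libraries were scaled by TMM. CPM values use these scaled sizes, and TPM the gene lengths in the files. All 12 libraries were fitted in 1 quasi-likelihood model with 4 group means (biological coefficient of variation, common value, 9.62%), which assumes that the groups vary alike, and contrasts were tested two-sided with the F test and Benjamini-Hochberg adjustment over all 15476 genes at 0.05. A gene is called when its adjusted p is under 0.05. SEs were obtained by dividing each log2 fold change by the root of its F. The limit for a count of 0 is 3 counts of the library total; reads carry no molecular identifiers, so it covers counting error only.

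Full values are given for the 12 rising and 12 falling called genes with the smallest p, a symbol that is no predicted or clone name and at least 1 CPM in the higher group. Other called genes are given by role, list members if called or among the 4 with the smallest p, 20 followed genes in any case, and the 5 interaction genes with the smallest p. Some genes that these rules name are not reported here. The 48 lists are described by counts and medians, with no test, and share some members. The members, lists and rules were chosen with earlier results of these data known. Promoters are RefSeq's, matched by symbol for 3 of 3 called clock output genes and 3 of 4 called antioxidant genes, and searched for exact letters on both strands.

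The procedure was tested on simulated data. As alternatives, edgeR was run with the size factors of DESeq2, unfiltered, with genes kept from 1 CPM in 3 libraries, with its robust option, after mitochondrial genes were dropped, on the compared libraries alone and with each library left out in turn. DESeq2 1.42.0 and limma-voom (limma 3.58.1) were the other tools.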

Additional observations from a re-analysis of the deposited data

How the results depend on the processing

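The 91 genes called between Western diet postpartum and nonpregnant hearts became 354 with DESeq2, 933 with no filter on low counts, 21 of them below the filter used, and 47 with only the libraries compared. They became between 0 and 472 with 1 of the 12 libraries left out. With 147 genes, leaving out control diet nonpregnant replicate 1 also moved the count, as did control diet nonpregnant replicate 2, with 50. The other control diet libraries, left out in turn, gave 61 to 78, and the other settings with all libraries 76 to 98. The cause of these shifts was not tested. Of the 91 genes DESeq2 called 88, limma-voom 74, the robust option 82 and the fit to only the libraries compared 34. Of 1819 combinations of a called gene with an alternative, 700 lost the call and 0 turned direction; without the fits that leave out a library it was 635 of 727 that kept it. The interaction, at 0 genes, gave 30 with DESeq2, 506 with no filter, 1 with the robust option and 0 to 53 with a library left out. The control diet counts of genes with the same direction ran from 66 to 77 with a library left out, against 73, and those also with an unadjusted p under 0.05 from 23 to 32, against 29. Of 959 list medians under alternatives, 909 moved by less than the replicate SD. With 1 Western diet library left out, the medians of the core clock, heat shock, glycogen, sterol, pregnancy hormone, angiogenesis, adrenergic, atrial, smooth muscle, neutrophil, white adipocyte and skeletal muscle lists changed sign, and other medians, mostly under 0.2 in size, moved by more than 1.5 times. No paired analysis was possible because the library titles carry their own numbers and share no replicate number between groups. Genes near the 0.131 CPM that a count of 0 allows fell below the filter on low counts and were not tested in the reported fit.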
